A study of Zea mays subsp. mays with 11 samples.

Results

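In anthers of the homozygous maize ago18 triple mutant, 3 of the loci annotated as meiotic 24-PHAS loci had Argonaute-loaded small RNAs that were more abundant at 5 mm than at 2 mm. These were B73_24PHAS_880, B73_24PHAS_23943 and B73_24PHAS_36488. They stand beside 151 other meiotic 24-PHAS loci in a table of 659 PHAS loci. They were chosen by their abundance in the homozygous mutant, higher at 5 mm than at 2 mm, so their values in the mutant are given here as a description, and no test of them is read as support. The libraries of the heterozygous siblings did not enter the rule, and there the same comparison of anther lengths was tested.

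The 11 small RNA libraries came from anthers of maize plants of mostly B73 background, in 4 groups. The ago18HM-5mm group had 3 libraries and the ago18HM-2mm group had 2, both from plants homozygous for mutations in ago18a, ago18b and ago18c. The ago18HT-5mm and ago18HT-2mm groups had 3 libraries each, from siblings heterozygous for the same mutations. The controls therefore carry the mutant alleles as well and are not wild type. The alleles of ago18a and ago18b are frameshift deletions made by genome editing, the allele of ago18c is a Mu transposon insertion, and the plants hold no transgene. Replicates came from different plants. The study places 2 mm anthers in meiosis and 5 mm anthers after it. Small RNAs were isolated with the TraPR kit, which is meant to isolate small RNAs held in Argonaute proteins. The libraries therefore reflect loaded small RNAs and not all small RNAs of the anther.

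PhasiRNAs are small RNAs that lie at regular intervals along the locus they come from. At meiotic 24-PHAS loci of maize their production is set off by the microRNA miR2275 and depends on the enzyme DCL5, whose loss makes plants male sterile at some temperatures. AGO18 is a grass Argonaute that binds phasiRNAs in anthers. Meiotic 24-PHAS loci were separated from premeiotic ones in the annotation of the study by their low abundance in anthers before meiosis.

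The most abundant small RNA that the annotation lists for each locus is shown first, because it is the product by which the locus can be recognised. Each is written 5′ to 3′, with the 5′ base, which Argonautes contact when they select small RNAs, in capitals.
B73_24PHAS_880: Auugauucugucauugacuggcug
B73_24PHAS_23943: Auuccccgcuuggaucuugucagu
B73_24PHAS_36488: Agcugaacuacaaauuaugcgaga
Over the meiotic loci, 144 listed RNAs (93.5%) start with A and 152 are 24 nt long. All 3 RNAs shown here are 24 nt long and start with A. Their GC content was 41.7% for B73_24PHAS_880, 50% for B73_24PHAS_23943 and 37.5% for B73_24PHAS_36488, against a median of 45.8% over the meiotic loci. None of the 3 RNAs was listed for another B73 locus. The RNA of B73_24PHAS_880 was also listed for 1 PHAS locus of the inbred HP301, at chr1:24503475-24504043 of the HP301 genome. The RNAs of B73_24PHAS_23943 and B73_24PHAS_36488 were listed for no locus of HP301, Il14H, NC358 or Oh43. By comparison, 124 of the meiotic loci (80.5%) had their RNA listed in at least 1 of these 4 inbreds.

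The 3 loci lie on different chromosomes of B73 RefGen_v5. B73_24PHAS_880 is at chr1:22958087-22958538 on the minus strand and spans 452 bp, of which 384 bp overlap the protein-coding gene LOC100282662. B73_24PHAS_23943 is at chr4:155449899-155451484 on the minus strand, spans 1586 bp and overlaps no RefSeq gene. The gene nearest to it, the transcribed pseudogene LOC109946045, is 160 kb away. B73_24PHAS_36488 is at chr6:111847220-111847676, has no assigned strand, and lies with all of its 457 bp inside the protein-coding gene LOC103629764. Overlap with a protein-coding gene was found for 30 meiotic loci (19.5%). B73_24PHAS_880 and B73_24PHAS_36488 were the 18th and 19th shortest of the meiotic loci, whose median length was 1275.5 bp, while B73_24PHAS_23943 was the 107th shortest. The deposited values give neither the size nor the strand of the reads, so phasiRNAs and other small RNAs from the overlapping genes cannot be told apart.

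B73_24PHAS_36488 was by far the most abundant of the 3. It had 1781, 1841 and 1321 CPM (counts per 1000000 of a normalisation total that is not specified) in the 3 ago18HM-5mm libraries and 40.0 and 74.1 CPM in the 2 ago18HM-2mm libraries. In the siblings it had 1615, 1699 and 2063 CPM in ago18HT-5mm and 88.0, 54.0 and 79.6 CPM in ago18HT-2mm. In both genotypes every 5 mm library was far above every 2 mm library, and at each length the ranges of both genotypes overlapped. These values rest on 8819 to 31720 reads in ago18HM-5mm, 2120 to 2733 in ago18HM-2mm, 10263 to 16499 in ago18HT-5mm and 1787 to 3848 in ago18HT-2mm. The anthers were measured whole, so fewer cells of a type and less RNA per cell cannot be told apart in these or the following values.

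B73_24PHAS_880 was a low locus. It had 9.15, 9.23 and 5.84 CPM in ago18HM-5mm and 3.66 and 3.93 CPM in ago18HM-2mm. It had 11.8, 10.6 and 9.501 CPM in ago18HT-5mm and 6.22, 4.66 and 4.72 CPM in ago18HT-2mm. Within each genotype the 5 mm libraries were all above the 2 mm libraries, and at each length the ago18HM libraries were all below the ago18HT libraries. Reads per library ranged from 39 to 272.

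B73_24PHAS_23943 was lower still and rested on 5 to 69 reads per library. It had 2.81, 2.58 and 1.498 CPM in ago18HM-5mm, from 50, 14 and 10 reads, and 0.226 and 0.136 CPM in ago18HM-2mm, from 12 and 5 reads. It had 6.77, 3.91 and 2.81 CPM in ago18HT-5mm, from 43, 38 and 21 reads, and 0.847, 2.09 and 0.225 CPM in ago18HT-2mm, from 37, 69 and 8 reads. The groups of 5 mm and 2 mm anthers did not overlap within either genotype, but the 3 ago18HT-2mm libraries differed from each other by 9.28-fold. In the library with the fewest reads, ago18HM-2mm replicate 2, the exact Poisson 95% interval of the 5 reads was 0.0440 to 0.316 CPM, which covers counting error only.

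**Figure D1:**
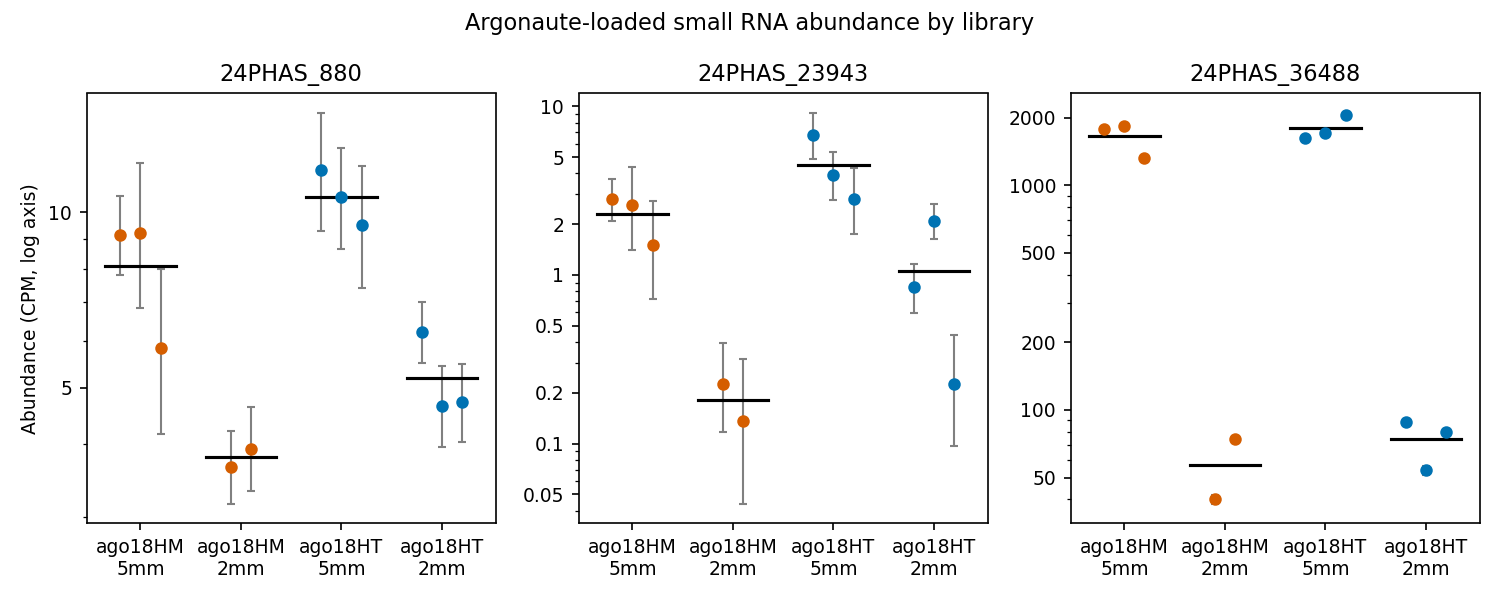
Abundance of the 3 loci in CPM on log axes, with 1 point per library, a black line at each group mean and grey bars for the exact Poisson 95% interval of the reads. In every panel the 5 mm groups lie above the 2 mm groups of the same genotype, and for B73_24PHAS_36488 the 5 mm libraries sit between 1321 and 2063 CPM, against 40.0 to 88.0 CPM at 2 mm.

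Depth differed with anther length. Reads counted in PHAS loci were 574309 to 3201808 per library at 5 mm (6 libraries), against 5193455 to 10738654 at 2 mm (5 libraries). The CPM denominator was 5419067 to 17805878 at 5 mm, against 33076189 to 53038060 at 2 mm. It was not always whole (5419066.6 at its lowest), so it may be a scaled total and not a count of reads. The effects of depth and of anther length cannot be told apart. Under the smaller denominators of 5 mm anthers, 3 reads stood for up to 0.554 CPM, against at most 0.0907 CPM at 2 mm. The summed abundance of all meiotic 24-PHAS loci was 11068 to 16838 CPM in ago18HM-5mm, 26351 to 41553 CPM in ago18HM-2mm, 219707 to 266871 CPM in ago18HT-5mm and 117705 to 237337 CPM in ago18HT-2mm.

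In the mutant, the difference between 5 mm and 2 mm anthers chose the loci. It was 4.88 for B73_24PHAS_36488, 1.46 for B73_24PHAS_23943 and 0.90 for B73_24PHAS_880 on the log2(CPM + 1) scale. In CPM, B73_24PHAS_36488 averaged 1648 ± 285 (n = 3) in ago18HM-5mm and 57.0 ± 24.1 (n = 2) in ago18HM-2mm, a 28.9-fold difference. B73_24PHAS_23943 averaged 2.30 ± 0.701 CPM in ago18HM-5mm and 0.181 ± 0.0641 CPM in ago18HM-2mm (12.7-fold). B73_24PHAS_880 averaged 8.07 ± 1.93 CPM in ago18HM-5mm and 3.79 ± 0.193 CPM in ago18HM-2mm (2.13-fold), with errors as SD throughout. These 3 were the only meiotic loci (1.95%) whose ago18HM-5mm libraries were all above their ago18HM-2mm libraries, against 88 of all 659 loci (13.4%). The same 3 were the meiotic loci past the limma threshold as higher, against 26 of 659 (3.95%). The rule used this contrast, so the choice of the loci fixed both counts and nothing is read from them, nor from the limma count being 1 without ago18HM-5mm replicate 1 or 2, ago18HM-2mm replicate 1 or 2, or ago18HT-5mm replicate 2, each left out in turn. Over the meiotic loci the median difference in ago18HM was -1.06, and 17 of the loci had a difference above 0.

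Among these 17, the loci just outside the rule overlapped between lengths or had smaller differences. B73_24PHAS_30723 had a larger log2 difference than 2 of the members, 1.47, but its libraries overlapped, with 26.2 to 43.2 CPM in ago18HM-5mm and 0.584 to 111 CPM in ago18HM-2mm. B73_24PHAS_26386 followed with 0.79, from 2.21 to 7.04 CPM in ago18HM-5mm and 0.132 to 4.83 CPM in ago18HM-2mm. B73_24PHAS_17891 and B73_24PHAS_13534 had the smallest p outside the rule, with differences of 0.52 and 0.35. The member with the smallest difference, B73_24PHAS_880, stood at 0.90.

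The comparison that the rule left free asks whether the 3 loci also changed with anther length in the heterozygous siblings. All 3 had a higher mean CPM at 5 mm there. The ago18HM libraries, which chose the loci, still entered the spread behind the limma p. In a fit of only the 2 ago18HT groups, the limma adjusted p was 0.000397 for B73_24PHAS_36488 and 0.0275 for B73_24PHAS_880. For B73_24PHAS_23943 the limma adjusted p of that fit was 0.0852, so its call was lost. B73_24PHAS_36488 averaged 1793 ± 238 CPM in ago18HT-5mm and 73.9 ± 17.7 CPM in ago18HT-2mm (SD, n = 3 each), a 24.3-fold difference. On the log2(CPM + 1) scale the difference was 4.60 (SE 0.266, 95% interval 4.005 to 5.202, limma adjusted p = 1.49e-05), the largest among the meiotic loci. The call was kept under each of the 22 alternatives that gave a p, leaving out each library included.

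B73_24PHAS_880 averaged 10.6 ± 1.15 CPM in ago18HT-5mm and 5.199 ± 0.888 CPM in ago18HT-2mm (SD, n = 3 each), which is 2.05-fold. The log2 difference was 0.91 (SE 0.228, 95% interval 0.40 to 1.43, limma adjusted p = 0.0310) and ranked 36th among the meiotic loci. The call was lost without ago18HT-5mm replicate 1, 2 or 3 (limma adjusted p = 0.114, 0.0805 and 0.0679) and without ago18HT-2mm replicate 2 or 3 (limma adjusted p = 0.0853 and 0.101), while the difference stayed between 0.84 and 1.03 whichever library was left out.

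B73_24PHAS_23943 averaged 4.50 ± 2.04 CPM in ago18HT-5mm and 1.05 ± 0.948 CPM in ago18HT-2mm (SD, n = 3 each), which is 4.27-fold. The log2 difference was 1.46 (SE 0.391, 95% interval 0.58 to 2.34, limma adjusted p = 0.0385), the 10th highest among the meiotic loci. This call was the least stable of the 3. It was lost without any ago18HT-5mm replicate (limma adjusted p = 0.146, 0.0891 and 0.0516 without replicates 1, 2 and 3) and without ago18HT-2mm replicate 1 or 3 (limma adjusted p = 0.0883 and 0.118). It was also lost without ago18HM-5mm replicate 2 (0.0532), ago18HM-2mm replicate 1 (0.0532) or ago18HM-2mm replicate 2 (0.0561), again as limma adjusted p, since all libraries enter the estimate of the spread. The difference ranged from 1.14 to 1.81 over all libraries left out in turn.

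For each of the 3 loci a two-sided exact permutation test of the mean CPM gave p = 0.1, the smallest p that 3 against 3 libraries allow. Over all 659 PHAS loci, 31 (4.7%) passed the limma test as higher in ago18HT-5mm than in ago18HT-2mm and 52 (7.89%) as lower, and 151 (22.9%) had no overlap between these groups with 5 mm higher. With libraries centred on their 21-PHAS loci the split was 49 higher and 32 lower, and with median ratio scaling 47 higher and 37 lower. Among the meiotic loci the counts of loci that passed as higher and of loci without overlap were 10 (6.49%) and 47 (30.5%), and the median log2 difference was 0.39. By limma 0 meiotic loci passed as lower, with 1 at an unadjusted p under 0.05 and 0 by voom. The count of 10 meiotic loci fell to 6, 5 and 5 without ago18HT-5mm replicates 1, 2 and 3.

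The other 7 meiotic loci that rose in ago18HT were B73_24PHAS_774, B73_24PHAS_14671, B73_24PHAS_14681, B73_24PHAS_35087, B73_24PHAS_35107, B73_24PHAS_35108 and B73_24PHAS_48917. In ago18HM 0 of these 7 had a log2 difference between 5 mm and 2 mm above 0, with values from -1.65 to -0.32. Over all meiotic loci, members included, 137 were below 0 in this comparison and 17 above. The rule had also set apart every meiotic locus called higher in ago18HM. The contrast in ago18HM between these 7 and the 3 members is therefore not read as a result. In ago18HT the differences of the 7 were 1.11 to 2.09, with limma adjusted p from 0.00336 to 0.0443. All 7 passed the limma test as lower in ago18HM than in ago18HT at 5 mm, with log2 differences from -4.45 to -2.83, as did 139 of all 659 loci (21.1%) and 130 meiotic loci (84.4%). B73_24PHAS_774, for example, had 26.7 to 55.9 CPM in ago18HM-5mm, 51.2 to 78.6 CPM in ago18HM-2mm, 206 to 337 CPM in ago18HT-5mm and 99.9 to 134 CPM in ago18HT-2mm.

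The change in ago18HM minus the change in ago18HT was -0.02 for B73_24PHAS_880, -0.0022 for B73_24PHAS_23943 and 0.28 for B73_24PHAS_36488 on the log2 scale. The median over the meiotic loci was -1.48, with 20 loci above 0 and 134 below. The first term chose the 3 loci, so their place above the median follows largely from the choice. Nor was it particular to them: B73_24PHAS_30723, B73_24PHAS_17891 and B73_24PHAS_13534, just outside the rule, had 0.37, 0.39 and 0.33, and B73_24PHAS_26386 had -0.37. The value near 0 for B73_24PHAS_23943, which was below 1 CPM in most 2 mm libraries, depended on the pseudocount. It was 0.76 with a pseudocount of 0.1 CPM and 1.13 by voom, and the ratio of mean CPM at 5 mm over 2 mm was 12.7 in ago18HM and 4.27 in ago18HT. The value of B73_24PHAS_36488 was -0.16 without ago18HM-2mm replicate 1 and 0.71 without ago18HM-2mm replicate 2.

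**Figure D2:**
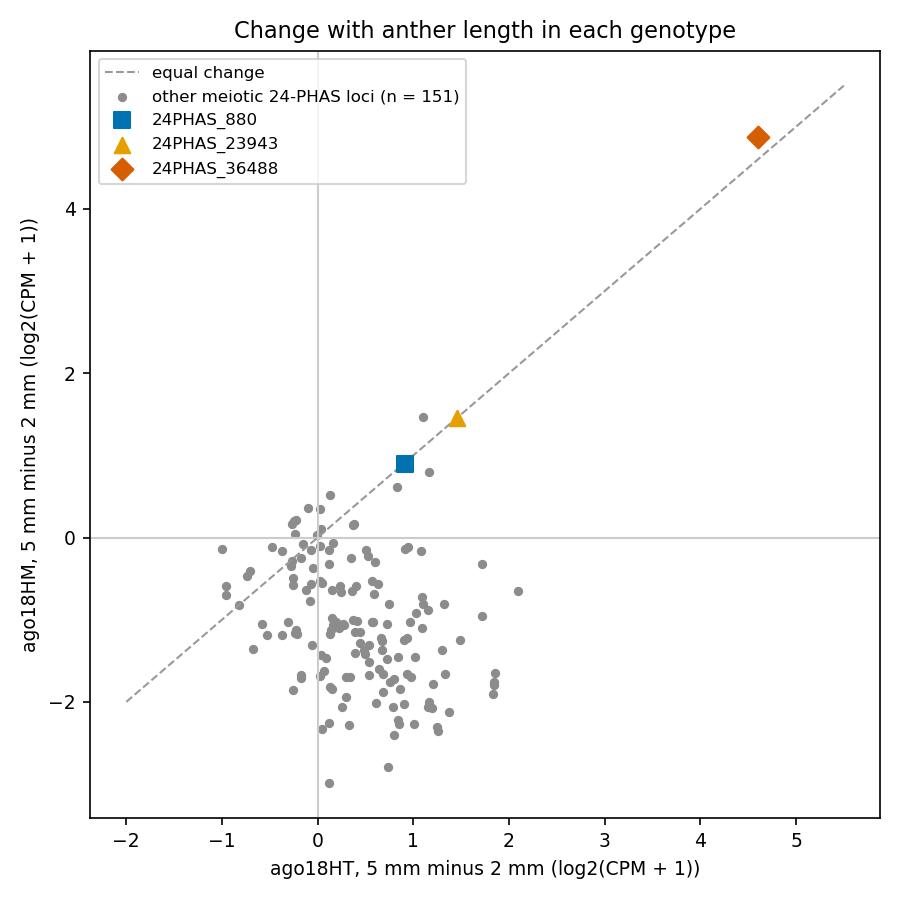
Difference between 5 mm and 2 mm anthers in log2(CPM + 1) for all meiotic 24-PHAS loci, in ago18HM on the vertical axis and in ago18HT on the horizontal axis, with a dashed line of equal change. The 3 loci were chosen by their value on the vertical axis, so their place above most other loci follows largely from the choice. They lie on or close to the dashed line at 0.91, 1.46 and 4.60 in ago18HT, whereas most other loci lie below it. For B73_24PHAS_23943 this holds on the log2(CPM + 1) scale shown, while a pseudocount of 0.1 CPM put it 0.76 above equal change.

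In the direct comparison of genotypes the mean CPM of all 3 loci was lower in ago18HM than in ago18HT at both lengths, most so for B73_24PHAS_23943. In 5 mm anthers ago18HM minus ago18HT was -0.13 for B73_24PHAS_36488, -0.38 for B73_24PHAS_880 and -0.70 for B73_24PHAS_23943 on the log2(CPM + 1) scale, against a median of -4.03 over the meiotic loci. The ratios of mean CPM, ago18HM over ago18HT, were 0.919, 0.759 and 0.511 in the same order. Both lower loci had every ago18HM-5mm library below every ago18HT-5mm library, whereas the libraries of B73_24PHAS_36488 overlapped. For B73_24PHAS_23943 the groups barely missed each other, with 2.808 CPM in the highest ago18HM-5mm library and 2.810 CPM in the lowest ago18HT-5mm library. Such a separation with ago18HM lower was found for 163 of all 659 loci (24.7%) and for 138 meiotic loci (89.6%). Without ago18HM-5mm replicate 3, which had the lowest value of the group at all 3 loci, the difference of B73_24PHAS_36488 was 0.02.

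In 2 mm anthers the differences were -0.40 for B73_24PHAS_36488, -0.36 for B73_24PHAS_880 and -0.70 for B73_24PHAS_23943, against a meiotic median of -1.99. The groups were apart, with ago18HM lower, for B73_24PHAS_880 and overlapped for the other two. At this length 168 of all 659 loci (25.5%) and 126 meiotic loci (81.8%) were apart with ago18HM lower. The pseudocount compresses the difference of B73_24PHAS_23943, whose mean CPM in ago18HM-2mm was 0.172 of that in ago18HT-2mm, or 5.82-fold lower. Its difference was -1.66 with a pseudocount of 0.1 CPM and -1.98 by voom. Without ago18HM-2mm replicate 1 the difference of B73_24PHAS_36488 was 0.03. Counted from the highest value among the meiotic loci, the 3 loci ranked 6th, 12th and 18th at 5 mm and 11th, 9th and 18th at 2 mm, so other meiotic loci had differences as small on this scale.

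**Figure D3:**
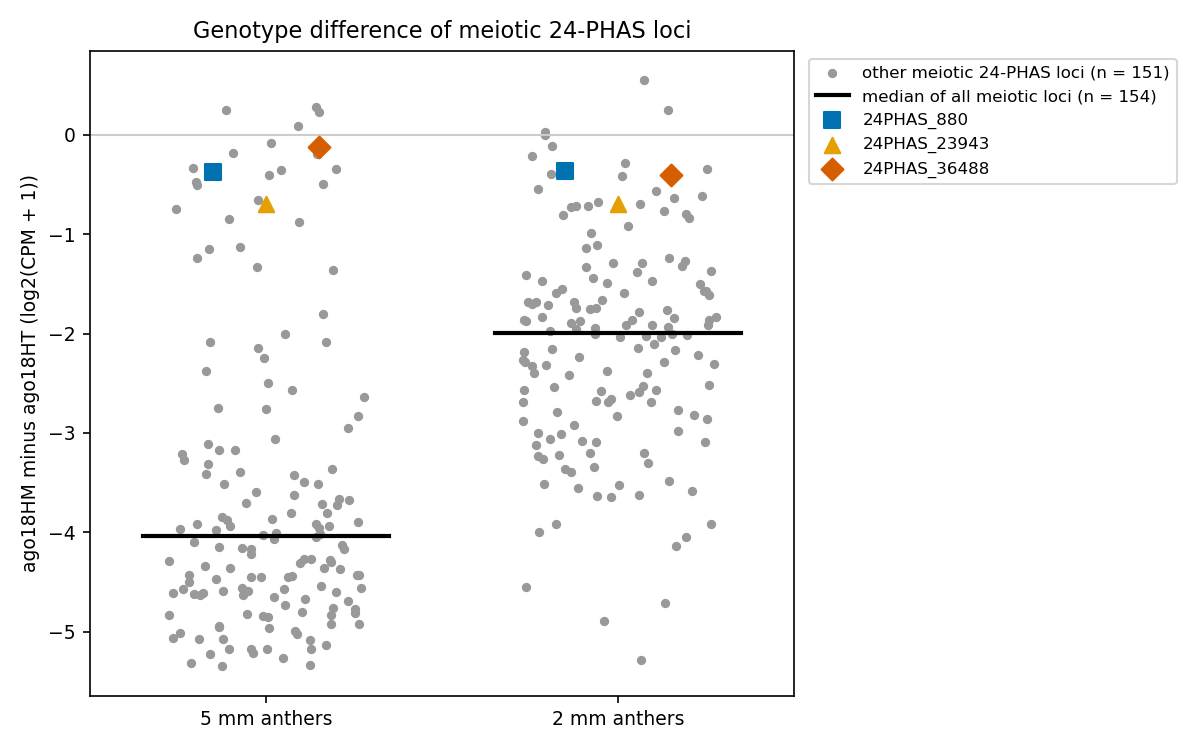
Difference between ago18HM and ago18HT in log2(CPM + 1) for all meiotic 24-PHAS loci, in 5 mm anthers on the left and 2 mm anthers on the right, with a black line at the median of the class (-4.03 and -1.99). The 3 loci lie between -0.70 and -0.13 at both lengths, near the upper end of the class on this scale. With a pseudocount of 0.1 CPM the 2 mm value of B73_24PHAS_23943 was -1.66.

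B73_24PHAS_36488 was a large part of the meiotic 24-PHAS signal in ago18HM-5mm. It made up 10.8%, 10.9% and 11.9% of the summed CPM of meiotic 24-PHAS loci in the 3 ago18HM-5mm libraries and 0.152% and 0.178% in the ago18HM-2mm libraries. Its share was 0.605% to 0.939% in ago18HT-5mm and 0.0228% to 0.0748% in ago18HT-2mm. The share thus separates the genotypes at both lengths although the CPM values overlap, since it divides by a class sum that itself differed between genotypes. As shares of this sum, the log2 differences between ago18HM and ago18HT turned positive at all 3 loci, with 3.95, 3.70 and 3.38 for B73_24PHAS_36488, B73_24PHAS_880 and B73_24PHAS_23943 at 5 mm and 2.04, 2.08 and 1.74 at 2 mm.

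Scaled to the reads in 21-PHAS loci in place of the CPM denominator, B73_24PHAS_36488 had 15328 to 22850 reads per 1000000 such reads in ago18HM-5mm, 403 to 824 in ago18HM-2mm, 22679 to 26514 in ago18HT-5mm and 696 to 1130 in ago18HT-2mm. On this scale too the lengths were well apart in each genotype. The genotypes overlapped at each length, but at 5 mm only barely. The ratio of means, ago18HM over ago18HT, was 0.793 at 5 mm and 0.644 at 2 mm, against 0.919 and 0.772 by CPM.

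Per kb of locus, B73_24PHAS_36488 reached 2891 to 4029 CPM per kb in ago18HM-5mm, 87.5 to 162 in ago18HM-2mm, 3535 to 4514 in ago18HT-5mm and 118 to 193 in ago18HT-2mm. This made it the highest meiotic locus in all 3 ago18HM-5mm libraries, 6.95 to 9.497 times the level of the next one. Without division by length, which raises a short locus against longer ones, it was also the highest there, at 2.24 to 3.38 times the CPM of the next locus. By CPM per kb it ranked 71st in both ago18HM-2mm libraries, 7th to 17th in ago18HT-5mm and 93rd to 116th in ago18HT-2mm. By CPM it ranked 97th and 100th in ago18HM-2mm, 39th to 57th in ago18HT-5mm and 107th to 120th in ago18HT-2mm. The other two stayed low in the class: by CPM per kb B73_24PHAS_880 ranked 101st to 136th over the 11 libraries, and B73_24PHAS_23943 ranked 141st or lower, with the last rank in ago18HM-2mm replicate 2 and ago18HT-2mm replicate 3.

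**Figure D4:**
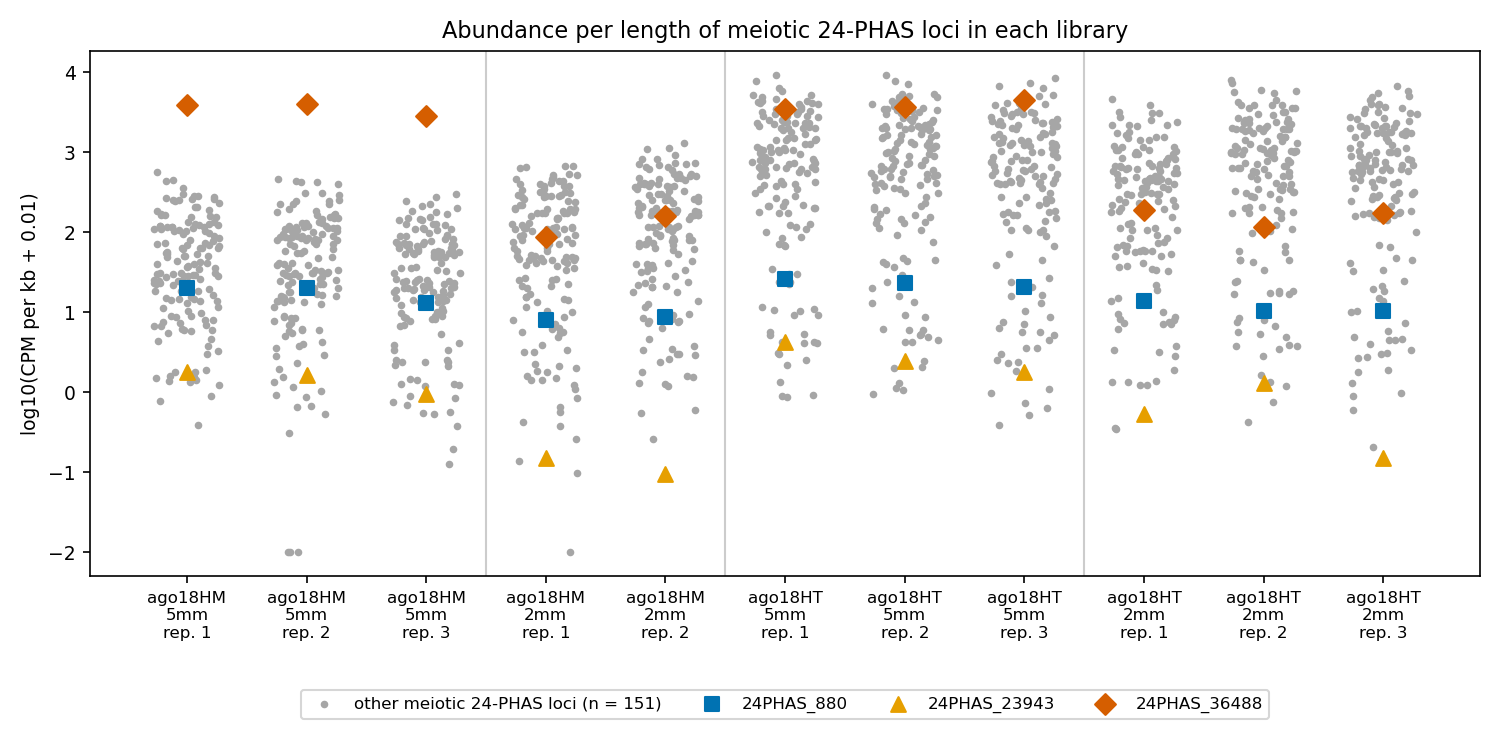
Abundance per length, as log10(CPM per kb + 0.01), of all meiotic 24-PHAS loci in each of the 11 libraries, with 1 point per locus. B73_24PHAS_36488 is above all other meiotic loci in the 3 ago18HM-5mm libraries and within the upper part of the class in ago18HT-5mm.

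The loci whose profile over the 11 libraries was most like each of the 3 were sought over the whole table, by the root mean square difference of log2(CPM + 1) after subtracting the mean of each locus. For B73_24PHAS_880 these were the 21-PHAS loci B73_21PHAS_11722 (0.214) and B73_21PHAS_54542 (0.256). For B73_24PHAS_23943 they were B73_24PHAS_880 (0.464) and B73_21PHAS_21113 (0.510). For B73_24PHAS_36488 the nearest were B73_21PHAS_31474 (1.66) and B73_21PHAS_21101 (1.68), so no locus came close to its range of change, and B73_24PHAS_23943 was the 4th nearest. All 5 of these 21-PHAS loci had higher means at 5 mm than at 2 mm in both genotypes, with log2 differences of 0.49 to 1.57 in ago18HM and 0.81 to 2.17 in ago18HT, which their choice by profile implies.

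The PHAS loci next to the 3 along the chromosome were far away in most cases. B73_24PHAS_36493, a premeiotic 24-PHAS locus 330 kb from B73_24PHAS_36488, had 17.7 to 22.3 CPM in ago18HM-5mm, 12.03 to 16.8 CPM in ago18HM-2mm, 14.5 to 22.2 CPM in ago18HT-5mm and 9.46 to 73.6 CPM in ago18HT-2mm. All other neighbouring PHAS loci lay at least 3255 kb away. Of the 6 neighbours B73_24PHAS_774 alone passed the limma test in ago18HT, as given above, and its log2 difference between lengths was -0.81 in ago18HM.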

How the data were processed

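Small RNAs were isolated with the TraPR kit from 2 mm and 5 mm anthers, and 11 libraries were sequenced. The authors mapped reads to B73 RefGen_v5 with Bowtie 1.3.1, counted them over PHAS loci with featureCounts 1.6.3, counting a read with several positions at each, and deposited CPM values made with edgeR 4.0.2. Loci of similar sequence can therefore share reads, and reads that differ from B73 may be missed. All 11 value columns were matched to libraries by their titles, and 0 were left over. Locus class, position and listed small RNA came from the annotation of the study, and gene positions from RefSeq (same assembly). Each library's CPM values were whole multiples of 1 step, to within 3.32e-05 reads, which gave reads and the CPM denominator. Too few low values could check these recovered reads, so all read counts and Poisson intervals given here rest on that step.

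Log2(CPM + 1) was fitted with limma 3.58.1 in R 4.3.3 (a mean for each of the 4 groups, all 11 libraries, trended eBayes, two-sided, Benjamini-Hochberg over 659 loci). Calls needed an adjusted p under 0.05 and a fold change above 1.5. A filter of 1 CPM in at least 2 libraries removed 0 loci, so all 3 members stayed. These log2 differences understate the change of low loci. Positive differences mean higher at 5 mm, or higher in ago18HM. The script was tested on simulated data. Figures and exact tests used Python 3.11.15 with scipy 1.17.1.

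The members and lists were chosen with earlier results of these data known. Other named loci were the 2 nearest profiles and the chromosomal neighbours of each member, the meiotic loci nearest to the rule's threshold, and meiotic loci called higher in ago18HT. Alternatives were pseudocounts of 0.1 and 5 CPM, no filter or a mean of at least 10 CPM, 3 other scalings, eBayes without trend or robust, a fit of only the 2 groups compared, a replicate block, leaving out each library, and, added after seeing the data, voom on the recovered reads.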

Additional observations from a re-analysis of the deposited data

How the results depend on the processing

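The call of B73_24PHAS_36488 in ago18HT was kept under all 22 alternatives with a p (limma adjusted p 7.96e-06 to 0.000579, log2 difference 4.40 to 4.74 over libraries left out). B73_24PHAS_880 kept it in 16 of 21 (highest 0.114, difference 0.84 to 1.03 over libraries left out). B73_24PHAS_23943 kept it in 11 of 21 (highest 0.146, 1.14 to 1.81 over libraries left out), and lost it with a pseudocount of 0.1 CPM (2.30, limma adjusted p = 0.0579) and in the fit of only the 2 groups compared (1.46, limma adjusted p = 0.0852). A 10 CPM minimum mean left only B73_24PHAS_36488. The planned edgeR count test was not run, as too few low values could check the recovered reads.

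As a share of the summed CPM of meiotic 24-PHAS loci, the difference between lengths in ago18HM was 2.09, 2.65 and 6.07 for B73_24PHAS_880, B73_24PHAS_23943 and B73_24PHAS_36488, and in ago18HT it was 0.47 for B73_24PHAS_880 and 4.16 for B73_24PHAS_36488. On this scale ago18HM minus ago18HT was 3.70, 3.38 and 3.95 at 5 mm, 2.08, 1.74 and 2.04 at 2 mm, and the difference of changes 1.62, 1.63 and 1.91, in the same order; the class sum enters each value. With a pseudocount of 5 CPM the difference between lengths in ago18HM was 0.56 for B73_24PHAS_880 and 0.49 for B73_24PHAS_23943, and that between genotypes at 2 mm was -0.21 for both. With 0.1 CPM, B73_24PHAS_23943 had 3.06, -1.66 and, for the difference of changes, 0.76. Voom on recovered reads gave 3.63, -1.98 and 1.13. Centring on 21-PHAS loci gave -0.53 for B73_24PHAS_880 at 2 mm.

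Same-numbered replicates did not deviate together (median r -0.176 over 15 pairs, against 0.101 over 30 other pairs), so the numbers do not pair libraries. With a replicate block the limma adjusted p in ago18HT was 0.0325, 0.0223 and 0.000579 in the same order of loci, and the difference of B73_24PHAS_23943 in ago18HM was 1.71.

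Between lengths in ago18HM, 3 meiotic loci were called higher at 5 mm, the 3 chosen on this contrast, so the count is no support; it was 1 with a pseudocount of 5 CPM and with that minimum, and ranged from 1 to 3 over libraries left out. The 66 called lower there became 35 with centring and ranged from 16 (without ago18HM-2mm replicate 2; 27 without ago18HM-5mm replicate 3) to 84 over libraries left out. The 10 called higher in ago18HT ranged from 5 to 11 over libraries left out. The 108 called lower in ago18HM than in ago18HT at 2 mm became 55 in the fit of only the 2 groups compared and ranged from 62 (without ago18HM-2mm replicate 1) to 121 over libraries left out. Of all calls between lengths in ago18HM, 16.4% were higher (30.5% with centring, 26.4% with median ratio scaling).

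Centring moved the median difference of all 659 loci by 0.166 between lengths in ago18HM and by -0.164 between genotypes at 2 mm, and median ratio scaling moved that between genotypes at 5 mm by 0.115. Neither changed the sign of a difference between lengths or genotypes for the 3 loci. The difference of changes kept its sign in 10 of 21 alternatives for B73_24PHAS_880 and for B73_24PHAS_23943. B73_24PHAS_23943 had 5 to 69 reads a library. The causes were not tested.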
